A study of Mus musculus with 4 samples.

Results

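The neurotrophins and their receptors were followed as 8 listed genes of the 55422 gene identifiers in the matrices: the ligand genes Bdnf and Ntf3, the Trk receptor genes Ntrk2 and Ntrk3, the p75 receptor gene Ngfr, and the sortilin family genes Sort1, Sorcs1 and Sorcs3. Each gene was found by its Ensembl identifier, and all 8 were present. Neurotrophins are small secreted proteins that are made as longer precursors and cut to a mature form. The mature forms bind Trk receptor tyrosine kinases, TrkB for brain-derived neurotrophic factor and TrkC for neurotrophin-3, whereas the precursors bind p75 together with sortilin family proteins, which also carry neurotrophins and Trk receptors within the cell. In the hippocampus BDNF is best known from the mossy fibres of the dentate gyrus and for its part in synaptic plasticity.

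The study measured nuclear RNA of the adult mouse hippocampus with the 10x Chromium droplet assay in 4 libraries, 2 labelled Control (Kat6a-f/f) and 2 labelled Kat6a-cKO (NEX-cre, Kat6a-f/f). Both groups carry the floxed alleles of Kat6a, the gene of a histone acetyltransferase, and the groups differ by the NEX-cre allele as well as by the deletion, so effects of the allele itself cannot be told apart from those of the loss of Kat6a. NEX-cre is a Cre recombinase gene at the Neurod6 locus, active in excitatory forebrain neurons, and Cre is not directed to inhibitory neurons or glia. The labels give neither the age in weeks, the sex nor the animals behind a library, so the p-values measure the spread between libraries, which may be technical. The title of the series names hippocampal CA3 as the region of interest.

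The deposited counts of unique molecular identifiers (UMIs) summed to 186897245 and 183440076 in Control replicates 1 and 2 and to 177249737 and 171323466 in Kat6a-cKO replicates 1 and 2. Between 7911 and 8442 barcodes per library held at least 5000 UMIs, and pairs of libraries shared 15 to 20 barcodes. Nuclei were clustered without the 8 genes, and 15 classes had at least 30 nuclei in every library. Classes are named for the markers that they raised, and each such name stands for nuclei like that type. CA3-like nuclei numbered 479 to 678 per library, CA1-like nuclei 1078 to 1515 and dentate granule-like nuclei 2692 to 3403. The endothelial-like class, 47 to 84 nuclei per library, was a mixed vessel cluster led by Ttr, Flt1 and Hbb-bs. The cre entry of the matrices held 0 counts in CA1-like and CA3-like nuclei of both Control libraries, against 41 and 51 in CA1-like and 31 and 51 in CA3-like nuclei of the Kat6a-cKO libraries. In dentate granule-like nuclei, the class with the most nuclei, it held 0 counts in both Control libraries and 5 and 6 in the Kat6a-cKO libraries, and in immature dentate-like nuclei 0 in all 4. Kat6a itself did not separate the groups in CA3-like nuclei, with 64.8 and 64.7 CPM (counts scaled to a common total) in the Control libraries against 60.1 and 65.4 CPM in Kat6a-cKO (log2 fold change −0.04, edgeR adjusted p 0.940). The deleted stretch of Kat6a is not given in the labels, so the summed count of the gene does not check the deletion.

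All levels below are CPM of UMIs summed over the nuclei of a class, scaled by the trimmed mean of M-values (TMM) within that class, and are given in the order Control replicate 1, Control replicate 2, Kat6a-cKO replicate 1, Kat6a-cKO replicate 2. A count of UMIs per gene depends on the transcript and its length, so levels are compared between classes and libraries for 1 gene and not between genes. The RNA in near-empty droplets of 10 to 100 UMIs gives the level that free RNA has in each library.

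The ligand gene Bdnf (ENSMUSG00000048482.14) spans chr2:109674700-109727007 on the plus strand of GRCm38, with 11 annotated transcripts that begin at 9 positions. The many starts are a known feature of the gene, whose transcripts share a coding exon, and a count per gene adds them up. RefSeq (GRCm38.p6) starts gave 7 windows of 250 bases before a Bdnf start and 2 before a Ntf3 start. A set of 3 motifs known from activity-regulated promoters were searched on both strands, the cyclic AMP response element TGACGTCA, its variant TCACGTCA (TGACGTGA on the other strand) and the E-box CACGTG. The first was in none of the windows of the 6 genes that had one (windows of Ntrk3 and Sort1 were not analysed here) and in 1.55% of all 32851 windows of that length in RefSeq. The variant TCACGTCA was in 1 of the 7 Bdnf windows, chr2:109692186-109692435, 38 bases before the start, and in 0.350% of all windows. The E-box was in 1 of the 2 Ntf3 windows, chr6:126166745-126166994, 231 bases before the start, and in 6.02% of all windows. These windows are shown because the levels of the 2 ligand genes below add up all starts, and these are the starts that differ in motif content. The motif is in capitals, and each sequence runs from 5′ to 3′ on the gene's strand.
Bdnf, start with the variant element, plus strand: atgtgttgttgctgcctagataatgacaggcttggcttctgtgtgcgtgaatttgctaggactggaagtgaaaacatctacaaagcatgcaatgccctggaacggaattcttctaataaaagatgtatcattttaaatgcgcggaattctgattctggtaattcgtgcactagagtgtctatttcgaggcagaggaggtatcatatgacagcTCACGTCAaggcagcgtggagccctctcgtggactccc
Ntf3, start with the E-box, minus strand: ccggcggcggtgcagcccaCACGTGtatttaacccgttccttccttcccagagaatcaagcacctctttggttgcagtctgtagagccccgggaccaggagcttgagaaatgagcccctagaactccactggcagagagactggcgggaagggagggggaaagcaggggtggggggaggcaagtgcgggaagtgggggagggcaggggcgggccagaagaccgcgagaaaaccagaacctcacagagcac
Ntf3, chr6:126164961-126165210, minus strand, with none of the motifs: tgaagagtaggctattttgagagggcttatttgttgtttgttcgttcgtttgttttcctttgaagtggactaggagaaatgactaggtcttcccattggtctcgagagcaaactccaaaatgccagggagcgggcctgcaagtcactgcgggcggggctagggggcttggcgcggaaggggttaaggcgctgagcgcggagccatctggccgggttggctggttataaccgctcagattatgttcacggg
A match of letters is a description of the window and not a site of binding.

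Bdnf was highest in the granule neurons of the dentate gyrus. In dentate granule-like nuclei it stood at 57.7, 56.7, 49.6 and 57.8 CPM, and in immature dentate-like nuclei at 49.9, 54.0, 48.7 and 45.0 CPM. CA2-like nuclei followed with 36.9, 41.2, 46.8 and 50.6 CPM. Mossy-like nuclei of the hilus held 38.1, 31.6, 32.4 and 43.2 CPM, CA3-like nuclei 23.2, 33.8, 29.4 and 31.1 CPM and CA1-like nuclei 20.9, 33.9, 19.6 and 30.2 CPM. In these 6 classes each neighbour in the order overlapped the next. In CA3-like nuclei Control replicate 1 was the low library, and in CA1-like nuclei replicate 1 of each genotype was low. Inhibitory-like nuclei were the lowest of the 15 classes, with 4.25, 5.71, 6.04 and 3.79 CPM, and their 4 values lay below all 4 values of oligodendrocyte precursor (OPC)-like nuclei, 6.45 to 11.4 CPM. The Control mean of dentate granule-like nuclei was 11.5 times that of inhibitory-like nuclei. Near-empty droplets held 19.8, 23.6, 18.7 and 24.5 CPM of Bdnf, which CA1-like and CA3-like nuclei exceeded in each of the 4 libraries. That range overlapped the levels in microglia-like (21.6 to 24.2 CPM), astrocyte-like (15.6 to 21 CPM) and oligodendrocyte-like nuclei (12.6 to 19.9 CPM). The dentate classes, CA2-like and mossy-like nuclei lay above all 4 near-empty values.

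At a fixed depth the order of dentate granule-like, CA3-like and inhibitory-like nuclei was the same for Bdnf. With each nucleus thinned to 5000 UMIs, 23.2, 23.0, 19.6 and 21.9% of dentate granule-like nuclei had a Bdnf UMI, against 43.2, 41.7, 35.0 and 39.0% without thinning. In CA3-like nuclei the thinned share was 8.94, 11.2, 8.81 and 10.4%. In inhibitory-like nuclei, where the level lay below that of free RNA, it ran from 1.86 to 2.59%. The 3 ranges did not overlap.

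Ntf3 (ENSMUSG00000049107.13, chr6:126101412-126166910, minus strand, 3 transcripts), the gene of neurotrophin-3, marked CA2 and the dentate gyrus and was low in the pyramidal neurons on either side of CA2. It was measured at 40.5, 42.1, 34.0 and 23.1 CPM in CA2-like nuclei, at 41.4, 40.5, 42.1 and 42.3 CPM in dentate granule-like nuclei and at 40.4, 28.8, 30.4 and 31.8 CPM in immature dentate-like nuclei. The next class was inhibitory-like nuclei, with 9.69, 7.84, 6.52 and 7.03 CPM, and all 12 values of the first 3 classes lay above it. CA1-like nuclei held 1.31, 1.08, 0.910 and 0.383 CPM. CA3-like nuclei held 0.737, 0.668, 0.838 and 0.816 CPM, which are 10, 10, 12 and 14 counts in all. Mossy-like nuclei, at 0 to 0.930 CPM, were as low, whereas near-empty droplets held 8.78 to 12.9 CPM. All 12 values of CA1-like, CA3-like and mossy-like nuclei thus lay below those of free RNA in the same libraries. A UMI of Ntf3 was found in 46.2, 46.3, 43.2 and 35.0% of CA2-like nuclei.

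**Figure D1:**
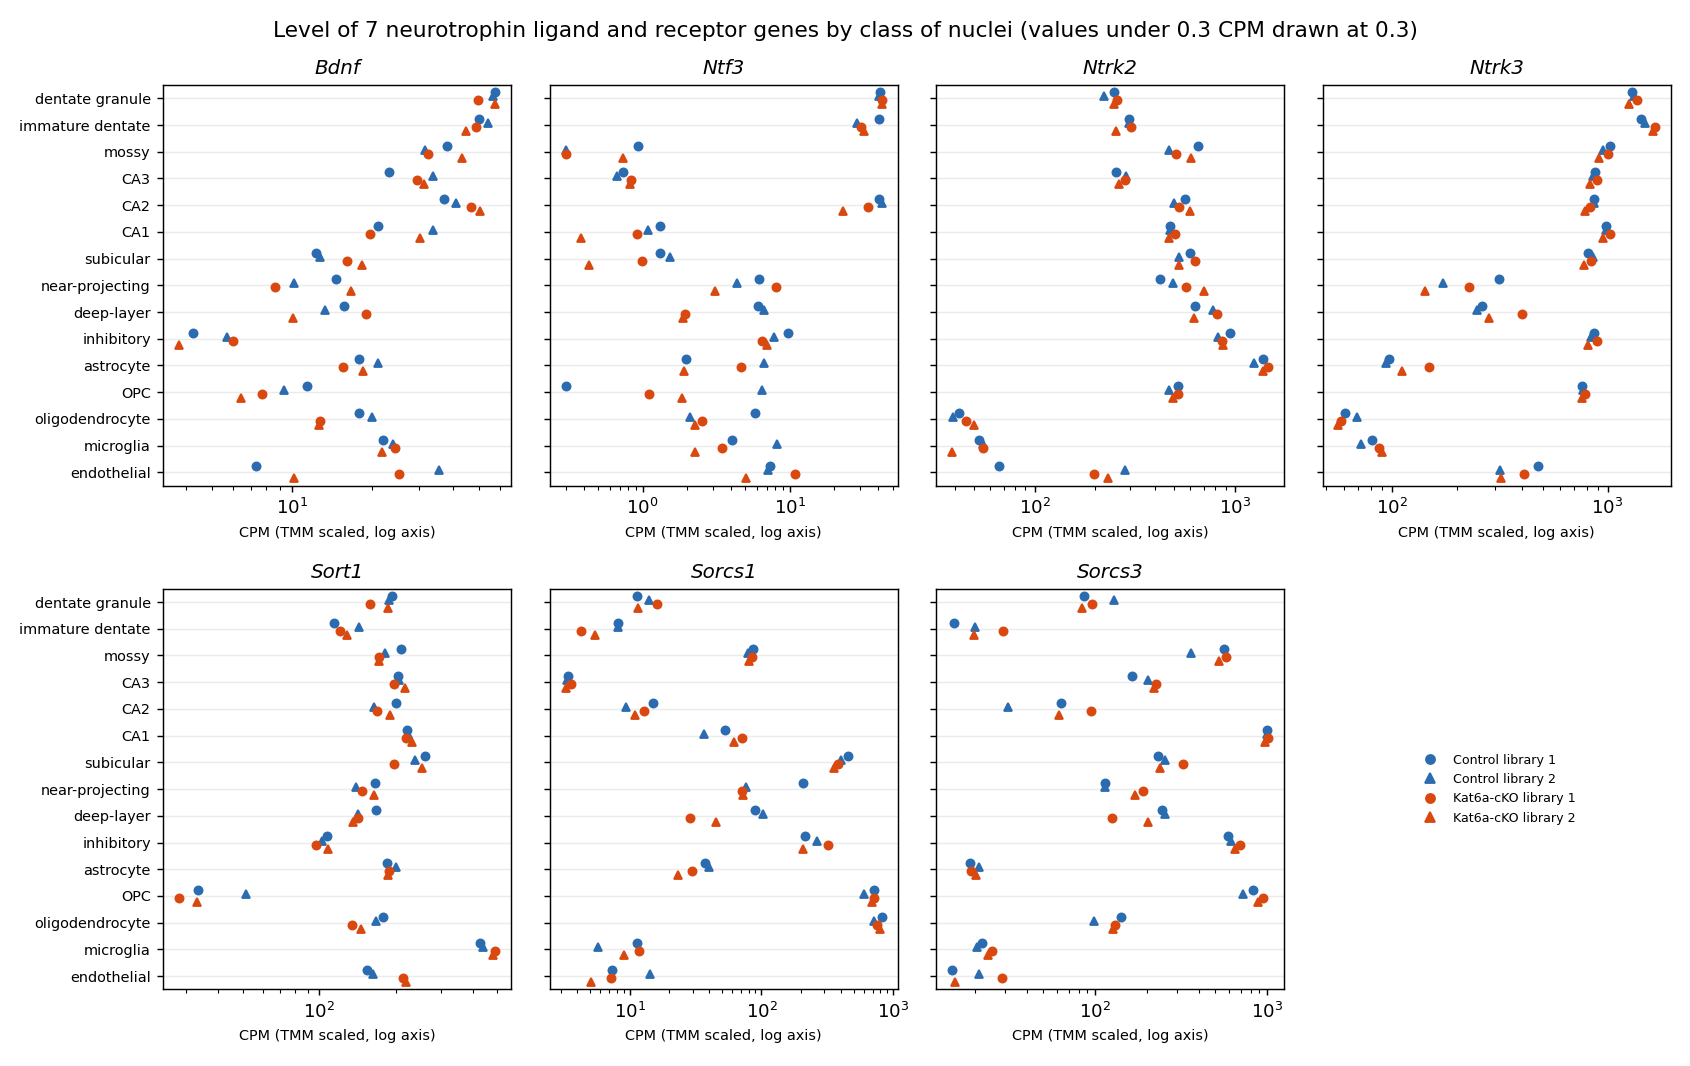
Levels of 7 of the 8 genes in 15 classes of nuclei, as TMM-scaled CPM on a log axis, with 1 point per library, Control and Kat6a-cKO in different colours; values under 0.3 CPM are drawn at 0.3, and Ngfr is not drawn. Bdnf and Ntf3 are high in the dentate classes and CA2-like nuclei, Ntrk2 is highest in astrocyte-like nuclei, and Sorcs1 runs from its lowest level in CA3-like nuclei to its highest in oligodendrocyte-like nuclei.

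Ntrk2 (ENSMUSG00000055254.15, chr13:58806569-59133970, plus strand), the gene of the BDNF receptor TrkB, was highest in astrocyte-like nuclei. There it stood at 1380, 1245, 1470 and 1380 CPM, above all 4 values of inhibitory-like nuclei, 952, 827, 859 and 870 CPM. The gene encodes both a full-length kinase and a truncated receptor that astrocytes are known to make, and a count per gene does not separate them. Among pyramidal neurons CA1-like nuclei held 472, 473, 503 and 468 CPM, and CA2-like nuclei 498 to 594 CPM. CA3-like nuclei, at 255, 285, 284 and 266 CPM, and dentate granule-like nuclei, at 250, 221, 258 and 248 CPM, were lower than both. Near-empty droplets held 227, 244, 297 and 284 CPM of Ntrk2, so the CA3-like and dentate granule-like levels were not above that of free RNA in all libraries. The receptor gene and its ligand gene thus had different orders: the dentate granule-like class had the highest Control mean of the 15 classes for Bdnf and the lowest of the neuronal classes for Ntrk2, although its values overlapped those of immature dentate-like nuclei in both and those of CA3-like nuclei for Ntrk2. Oligodendrocyte-like nuclei held 41.9, 39.2, 45.3 and 49.6 CPM of Ntrk2, and the Control mean of astrocyte-like nuclei was 32.4 times theirs.

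Ntrk3 (ENSMUSG00000059146.12, chr7:78175959-78738012, minus strand), the gene of the neurotrophin-3 receptor TrkC, had its highest class levels in the dentate gyrus. Immature dentate-like nuclei held 1433, 1497, 1653 and 1620 CPM and dentate granule-like nuclei 1302, 1332, 1367 and 1260 CPM. Mossy-like nuclei, with 1022, 948, 1010 and 917 CPM, and CA1-like nuclei, with 980, 987, 1032 and 948 CPM, followed and overlapped each other. CA3-like nuclei, with 874, 858, 896 and 825 CPM, lay below every CA1-like value. Both dentate classes lay above every value of every other whole class. Within the inhibitory-like class the cluster led by Btbd11, described below, held higher values than both. CA2-like nuclei, where Ntf3 was high, held 863, 861, 827 and 784 CPM of Ntrk3, a level that overlapped that of CA3-like nuclei, where Ntf3 was low. Astrocyte-like nuclei held 97.2, 94.3, 149 and 112 CPM and oligodendrocyte-like nuclei 61.2, 69.4, 58.1 and 56.8 CPM, below the 428, 463, 461 and 471 CPM of near-empty droplets, so astrocyte-like nuclei ranked first of the 15 classes for Ntrk2 and among the last for Ntrk3.

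Ngfr (ENSMUSG00000000120.6, chr11:95568818-95587735, minus strand), the gene of the p75 receptor, was almost not detected. In near-projecting-like nuclei, an excitatory class marked by Tshz2 and Vwc2l, it gave 3, 1, 5 and 13 counts. Of the 2 clusters of that class with at least 30 nuclei in every library, only 1 held counts of Ngfr. A UMI was found in 0.977% of near-projecting-like nuclei of Control replicate 1 (exact 95% binomial interval 0.202 to 2.83%, counting error only), 0.559% of replicate 2 (0.0141 to 3.07%), 1.38% of Kat6a-cKO replicate 1 (0.449 to 3.18%) and 3.21% of replicate 2 (1.61 to 5.67%). Those intervals overlap. Astrocyte-like, microglia-like, deep-layer-like and immature dentate-like nuclei held 0 counts in all 4 libraries, which allows up to 0.397 to 0.629 CPM (3 counts over the class), and the near-empty droplets held 1, 1, 0 and 0 counts. None of the 9 classes tested between genotypes had enough counts of Ngfr, and near-projecting-like nuclei were not among those classes.

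Sort1 (ENSMUSG00000068747.14, chr3:108284082-108361511, plus strand) encodes sortilin, a sorting receptor that binds proneurotrophins. It was highest in microglia-like nuclei, with 427, 439, 491 and 478 CPM, above all values of the other classes. CA1-like nuclei held 221, 222, 219 and 232 CPM, CA3-like nuclei 203, 206, 196 and 216 CPM and dentate granule-like nuclei 193, 187, 158 and 186 CPM. Inhibitory-like nuclei were lower, at 97.1 to 108 CPM. Near-empty droplets held 154, 151, 140 and 164 CPM of Sort1. OPC-like nuclei held 33.6, 51.6, 28.2 and 33.2 CPM, below every value of oligodendrocyte-like nuclei, 177, 167, 135 and 146 CPM.

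Sorcs1 (ENSMUSG00000043531.16, chr19:50143299-50678646, minus strand) and Sorcs3 (ENSMUSG00000063434.6, chr19:48206025-48805505, plus strand) encode sortilin-related receptors and are neighbours on chromosome 19, 1338 kb apart. Sorcs1 was highest in the oligodendrocyte lineage. Oligodendrocyte-like nuclei held 819, 715, 756 and 794 CPM and OPC-like nuclei 720, 597, 714 and 693 CPM. Among neurons it was highest in subicular-like nuclei, with 452, 402, 382 and 358 CPM, and it ran through inhibitory-like nuclei (215, 266, 318 and 205 CPM) and CA1-like nuclei (52.8, 36.3, 71.7 and 61.3 CPM) to CA3-like nuclei, with 3.39, 3.34, 3.56 and 3.26 CPM. The Control mean of oligodendrocyte-like nuclei was 228 times that of CA3-like nuclei, in which the 4 libraries differed little. Near-empty droplets held 57.0 to 67.6 CPM of Sorcs1, above the levels in CA3-like, CA2-like (9.32 to 14.9 CPM) and dentate granule-like nuclei (11.4 to 16.0 CPM) and within the range of CA1-like nuclei.

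Sorcs3 had another order. CA1-like nuclei held 999, 992, 1014 and 967 CPM, and OPC-like nuclei 829, 727, 943 and 881 CPM. Inhibitory-like nuclei stood at 594, 616, 696 and 649 CPM and mossy-like nuclei at 563, 360, 575 and 526 CPM. CA3-like nuclei held 164, 202, 225 and 220 CPM and dentate granule-like nuclei 86.3, 128, 96.2 and 83.9 CPM. In mossy-like nuclei Control replicate 2 was low, and in dentate granule-like nuclei the same library was high. Near-empty droplets held 175, 189, 199.9 and 194 CPM, lower in both Control libraries than in both Kat6a-cKO libraries. CA3-like nuclei overlapped that range, and dentate granule-like, CA2-like (31.1 to 95.1 CPM) and astrocyte-like nuclei (18.8 to 21 CPM) lay below it.

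Of the related genes outside the list, Ntf5, the gene of a second TrkB ligand, was low, with 2.65, 2.74, 2.24 and 1.92 CPM in CA3-like nuclei. These are 36, 41, 32 and 33 counts, whereas CA1-like nuclei held 0 counts in every library. Sorcs2 stood at 429, 480, 441 and 354 CPM in mossy-like nuclei and at 55.5, 83.5, 75.3 and 61.7 CPM in CA3-like nuclei. The sortilin family genes therefore led in different classes, Sort1 in microglia-like, Sorcs1 in oligodendrocyte-like and Sorcs3 in CA1-like nuclei.

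The 3 principal neuron classes were compared in pairs with edgeR's quasi-likelihood test, the library as a block and Benjamini-Hochberg adjustment over all genes tested. Between CA3-like and CA1-like nuclei 6 of the 7 tested members differed, against 58.4% of all genes tested. The largest difference was in Sorcs1, lower in CA3-like nuclei by a log2 difference of −3.98 ± 0.08 (SE), followed by Sorcs3 with −2.29 ± 0.04 and Ntrk2 with −0.81 ± 0.03. Bdnf was 0.18 ± 0.07 higher (adjusted p 0.0251), a difference smaller than the gap between the 2 Control libraries of either class. Ntf3 did not pass, with −0.15 ± 0.30 (adjusted p 0.697). Between CA3-like and dentate granule-like nuclei all 7 differed, against 67.2% of all genes. Ntf3 was lower in CA3-like nuclei by −5.67 ± 0.11, Sorcs1 by −1.86 and Bdnf by −0.82 ± 0.06, whereas Sorcs3 was higher by 1.14. Between CA1-like and dentate granule-like nuclei all 7 differed as well, against 65.3% of all genes, with Sorcs3 higher by 3.45, Sorcs1 by 2.14 and Ntrk2 by 1.07 in CA1-like nuclei, and Ntf3 lower by −5.52. With a majority of all genes past the threshold, the counts say little of these members in particular, and the sizes carry the description.

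Within classes the members varied between clusters. The 4 dentate granule-like clusters split into 1 that was rich in Bdnf, Sorcs1 and Sorcs3, and 3 that were not. The rich cluster, led by Gm6999, Sv2c and Trpc6, made up 19.9, 23.6, 21.2 and 23.9% of dentate granule-like nuclei. Its Sorcs3 level was 377, 468, 382 and 295 CPM, against 10.9 to 52.3 CPM in the other 3, and it supplied 82.5, 83.8, 81.5 and 82.4% of the Sorcs3 count of the class. Its Bdnf level was 100.3, 105, 92.4 and 102 CPM against 33.4 to 59.3 CPM, and its Sorcs1 level 44.0, 46.9, 59.4 and 39.4 CPM against 2.97 to 5.40 CPM. The Sorcs3 level of the dentate granule-like class thus came mostly from this cluster.

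CA1-like nuclei had a similar split. The cluster led by Stac, Man1a and Ndst4, 23.4, 23.3, 26.5 and 26.6% of CA1-like nuclei, held 48.8, 87.8, 45.4 and 72.8 CPM of Bdnf, against 9.5 to 18.5 CPM in the other 2 clusters. Its Ntrk2 level was 991, 1141, 1053 and 916 CPM against 260 to 317 CPM, and its Sorcs3 level 1529, 1595, 1479 and 1404 CPM against 775 to 890 CPM. Its Sorcs1 level was 144, 98.4, 183 and 146 CPM, and it supplied 62.8 to 69.5% of the Sorcs1 count of the class. Thus Bdnf and Ntrk2, ligand and receptor, were both high in the same CA1-like cluster, which was not so in the dentate granule-like clusters, where Ntrk2 ran from 185 to 295 CPM and the cluster richest in Bdnf was at the low end of that range. Sorcs3 was also among the 10 leading genes of this CA1-like cluster, although it was left out of the clustering. Those leading genes hold 1 CA1 marker, Man1a, and 1 subicular marker, Ndst4. The cluster raised 5 of 8 CA1 markers and 1 of 6 subicular markers. With finer clustering a cluster led by Man1a, Stac and Sorcs3 among others raised 3 of 8 CA1 markers and stayed unnamed, and the CA1-like Control mean of Sorcs3, without TMM, was 752 CPM in place of 1004 CPM.

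Inhibitory-like clusters differed in receptors rather than ligands. The cluster led by Btbd11 held 1778, 1817, 1806 and 1660 CPM of Ntrk3, against 354 to 641 CPM in the other inhibitory-like clusters. Sorcs3 showed the reverse, with 73.4, 44.3, 158 and 108 CPM in that cluster, 1007, 1043, 1035 and 1072 CPM in the Cck-like cluster and 1511, 1391, 1694 and 1463 CPM in the Vip-like cluster. Another cluster, with 215 to 242 CPM of Sorcs3, held 16.3 to 23.7 CPM of Ntf3 and 1106 to 1213 CPM of Ntrk2. A cluster led by Sst, with 7 of 8 inhibitory markers raised, could not be named under the naming rule and is in none of these values.

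Subicular-like nuclei were made of 2 unlike clusters. Near-projecting-like nuclei were made of 2 unlike clusters and a small cluster of 22 nuclei, which is left out here. In subicular-like nuclei Sorcs3 stood at 402 to 445 CPM in one cluster and at 7.29, 6.61, 24.5 and 13.7 CPM in the other. In near-projecting-like nuclei Ntrk3 stood at 607 to 763 CPM in one cluster and at 35.0 to 54.9 CPM in the other, and Sorcs1 at 202 to 413 CPM against 30.8 to 49.6 CPM. The cluster rich in Ntrk3 was 50.5% of the nuclei of these 2 near-projecting-like clusters in Control replicate 1 and 23.3, 28.3 and 18.5% in the other libraries. The class level of Sorcs1 was 206, 75.8, 71.1 and 71.8 CPM, highest in the library with the largest share of that cluster. The part of that share in the class level was not tested.

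**Figure D2:**
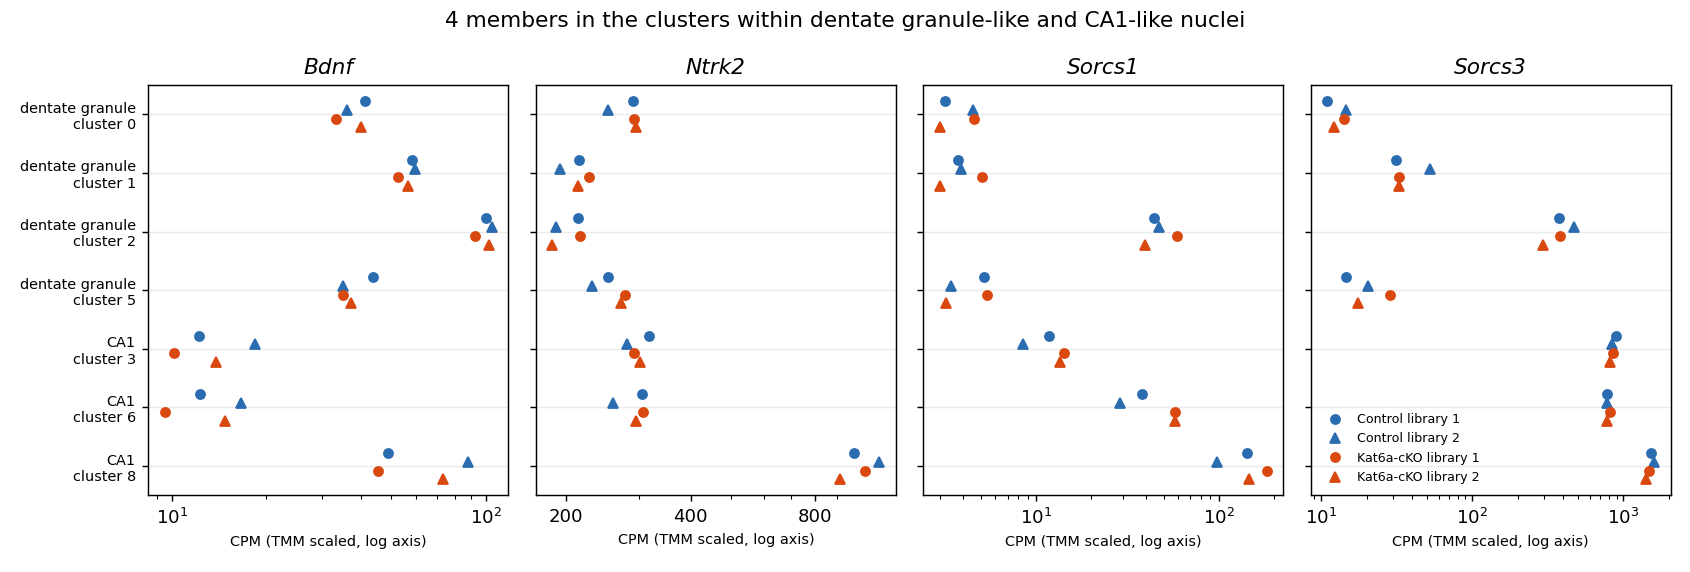
Levels of Bdnf, Ntrk2, Sorcs1 and Sorcs3 in the clusters that make up the dentate granule-like and CA1-like classes, as TMM-scaled CPM on a log axis, with 1 point per library (circles for replicate 1, triangles for replicate 2) and genotypes in different colours. One dentate granule-like cluster stands above the other 3 for Bdnf, Sorcs1 and Sorcs3, and 1 CA1-like cluster stands above the other 2 for Bdnf, Ntrk2, Sorcs1 and Sorcs3.

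The profiles over the 15 classes were compared with those of 14953 genes by Pearson's r of log2(CPM + 1) of the Control means. The points are classes of the same libraries, so r is a description. Ntrk2 was most like Wnk2 (r = 0.952 in Control and 0.953 in Kat6a-cKO), Shc3 (0.938 and 0.924) and Ppargc1a (0.928 and 0.902). Shc3 encodes a neuronal adaptor of Trk receptors. Ntrk3 was like Kcnt2 (0.925 and 0.901) and Nova2 (0.893 and 0.814). Bdnf was most like Olfml2b (0.897 and 0.874), Neurod2 (0.895 and 0.928), a neuronal transcription factor gene, and Arhgef25 (0.835 and 0.822). Ntf3 was most like Gm44723 (0.826 and 0.844), Rfx3 (0.816 and 0.831) and Cacng5 (0.795 and 0.781), the last of which is one of the CA2 markers used to name classes. Sorcs1 was like Cdh6 (0.825 and 0.667) and Tmem132d (0.818 and 0.831), and Sorcs3 most like Epb41l4b (0.867 and 0.903), B3gat1 (0.831 and 0.826) and Zdhhc2 (0.792 and 0.840). For Sort1 the nearest genes of the Control libraries had a lower r in Kat6a-cKO: Entr1 had r = 0.839 and 0.463, Zc3h13 0.809 and 0.565, and 9530062K07Rik 0.791 and 0.328. All genes named here were picked by their r in Control alone, so a lower r in Kat6a-cKO is not a comparison of the genotypes. Among the members themselves r in Control and Kat6a-cKO was 0.427 and 0.436 for Ntrk2 with Ntrk3, 0.354 and 0.395 for Bdnf with Ntf3, 0.579 and 0.642 for Sorcs1 with Sorcs3, −0.692 and −0.678 for Bdnf with Sorcs1, and −0.517 and −0.522 for Ntf3 with Sorcs3.

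The comparison of genotypes asked whether the level of the members differed in Kat6a-cKO within 9 of the classes. Subicular-like, near-projecting-like, deep-layer-like, immature dentate-like, microglia-like and endothelial-like nuclei were not tested between genotypes. In deep-layer-like nuclei the groups did not overlap for Sorcs1 (89.3, 102, 28.6 and 44.8 CPM), Ntf3, Ntrk3, Sorcs3 and Sort1. Ntrk2 (634, 782, 814 and 623 CPM) and Bdnf overlapped there. In near-projecting-like nuclei Sorcs3 (113, 114, 189 and 169 CPM), Ntrk2, Sorcs1 and Ngfr did not overlap. Bdnf (14.6, 10.2, 8.66 and 16.7 CPM), Ntf3, Ntrk3 and Sort1 did. Some members also did not overlap in the other untested classes. Over the tested classes 37.7% of all pairs of a gene and a class did not overlap, so such orders are common. In the 9 tested classes 59 pairs of a member and a class had enough counts. Of these 0 passed an adjusted p of 0.05 in edgeR's quasi-likelihood test, against 0.186% of all pairs of a gene and a class. DESeq2 on the same sums also called 0. An unadjusted p under 0.05 was found in 10 of the 59 pairs, a larger share than the 8.03% of all pairs. The pairs share genes and libraries and are not independent, and the smallest adjusted p was 0.200. In 22 pairs (37.3%, against 37.7% of all pairs) the libraries of the 2 groups did not overlap, 10 with Kat6a-cKO above Control and 12 below. The log2 fold changes of the tested pairs ran from −0.96 to 0.76, and 48 of the 59 were smaller than 0.3 in size. The median log2 fold change of the members was 0.025 in CA3-like nuclei (all genes −0.0048), 0.0091 in CA1-like nuclei (all genes −0.0045) and −0.0040 in dentate granule-like nuclei (all genes 0.0038). It was furthest from 0 in oligodendrocyte-like nuclei, at −0.083 (all genes 0.0020).

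In CA3-like nuclei 0 of 7 tested members passed, against 0.0271% of all genes. Bdnf, with means of 28.5 ± 7.49 CPM (SD, n = 2) in Control and 30.3 ± 1.22 CPM (SD, n = 2) in Kat6a-cKO, had a log2 fold change of 0.09 ± 0.15 (SE, adjusted p 0.937), and the groups overlapped. Sorcs3 had the smallest p of the members in this class, with 183 ± 26.6 CPM in Control and 223 ± 3.97 CPM in Kat6a-cKO and a log2 fold change of 0.28 ± 0.09 (adjusted p 0.407). Both Kat6a-cKO libraries lay above both Control libraries, the same order as in the near-empty droplets. With 10% of each sum taken off with their profile the value was 0.29 (adjusted p 0.799). The 2 Control libraries lay further apart than the Kat6a-cKO libraries did. Of the alternatives with all 4 libraries the difference passed only with no filter on low counts, at 0.28 (adjusted p 0.0243). That setting called 124 of 26556 genes higher and 185 lower, against 3 and 1 of 14741 in the reported test. Without Control replicate 2 the Sorcs3 value was 0.44, whereas without Control replicate 1 it was 0.14. For Ntrk2 and Ntrk3 the log2 fold changes in the 3 principal classes ran from −0.01 to 0.10, with a largest SE of 0.08.

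In CA1-like nuclei 0 of 7 passed, against 0.388% of all genes. Sorcs1 was the member with the smallest adjusted p of all, with 52.8 and 36.3 CPM in Control, 71.7 and 61.3 CPM in Kat6a-cKO and a log2 fold change of 0.58 ± 0.15 (adjusted p 0.200). The groups did not overlap, and within each genotype replicate 1 was the higher library. With the replicate number as a block the value was 0.60 (adjusted p 0.00140), and 228 of 15975 genes were called higher and 314 lower. With no filter on low counts it was 0.58 (adjusted p 2.44e-06), and 201 of 27514 genes were called higher and 315 lower. The reported test called 29 of 15975 higher and 33 lower. Without Control replicate 1 the Sorcs1 value was 0.87 and without Kat6a-cKO replicate 2 it was 0.69. In the other alternatives with all 4 libraries it did not pass. The share of the cluster that supplies most of the Sorcs1 count was 23.4 and 23.3% in the Control libraries against 26.5 and 26.6% in Kat6a-cKO, and its part in the difference was not tested. Within the clusters the order was the same: Sorcs1 stood at 144 and 98.4 CPM in Control and at 183 and 146 CPM in Kat6a-cKO in the richest cluster, at 38.2, 29.0, 57.9 and 57.6 CPM in the second and at 11.8, 8.51, 14.3 and 13.5 CPM in the third. Bdnf did not separate the groups in CA1-like nuclei (−0.13 ± 0.23, adjusted p 0.913), where replicate 2 of each genotype was the higher one. Ntf3 had a log2 fold change of −0.96 ± 0.42 (adjusted p 0.511) at the very low level given above.

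In CA2-like nuclei, 91 to 125 per library, 0 of 7 passed, against 0.0274% of all genes. Ntf3 had 40.5 and 42.1 CPM in Control against 34.0 and 23.1 CPM in Kat6a-cKO, a log2 fold change of −0.54 ± 0.19 (adjusted p 0.682). The groups did not overlap, and the 2 Kat6a-cKO libraries lay further apart than the 2 Control libraries. Sorcs3 had 63.2, 31.1, 95.1 and 61.5 CPM and a log2 fold change of 0.76 ± 0.27 (adjusted p 0.682), with Control replicate 1 above Kat6a-cKO replicate 2. Without Control replicate 1 the value was 1.33 (adjusted p 1.27e-07) and without Control replicate 2 it was 0.31 (adjusted p 0.810). For Bdnf both Kat6a-cKO libraries lay above both Control libraries, with a log2 fold change of 0.31 ± 0.15 (adjusted p 0.767).

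In dentate granule-like nuclei 0 of 7 passed, against 0.416% of all genes. Bdnf, at 57.2 ± 0.699 CPM in Control and 53.7 ± 5.79 CPM in Kat6a-cKO, had a log2 fold change of −0.09 ± 0.09 (adjusted p 0.810), and Kat6a-cKO replicate 2 was the highest of the 4 libraries. Ntf3 spanned 40.5 to 42.3 CPM over all 4. Sorcs3 had 107 ± 29.4 CPM in Control and 90.0 ± 8.69 CPM in Kat6a-cKO and a log2 fold change of −0.25 ± 0.15 (adjusted p 0.669). The direction depended on the Control libraries, 86.3 and 128 CPM: without Control replicate 1 it was −0.51 (adjusted p 0.00256) and without Control replicate 2 it was 0.06.

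**Figure D3:**
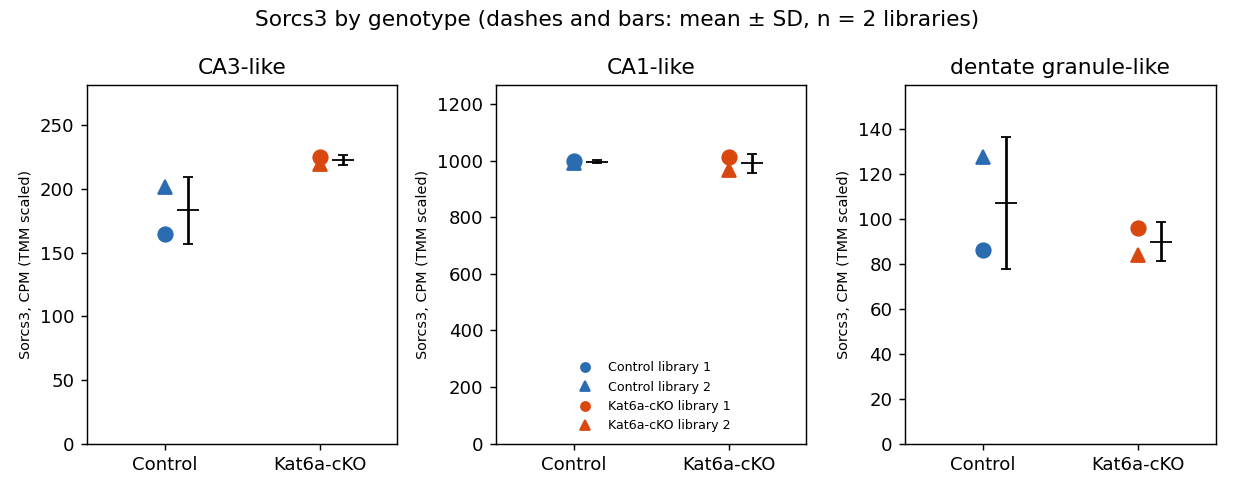
Sorcs3 in CA3-like, CA1-like and dentate granule-like nuclei, as TMM-scaled CPM on axes that start at 0, with 1 point per library and dashes with bars for the mean ± SD of the 2 libraries of a genotype. In CA3-like nuclei both Kat6a-cKO points lie above both Control points, whereas in dentate granule-like nuclei Control replicate 2, at 128 CPM, lies above the other 3.

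In mossy-like nuclei 0 members passed, against 0.623% of all genes. Sorcs3 had a log2 fold change of 0.27 ± 0.16 there (adjusted p 0.723), which was 0.61 (adjusted p 0.00541) without Control replicate 1 and −0.029 (adjusted p 0.981) without Control replicate 2. In inhibitory-like nuclei edgeR called 0 of all 13771 genes tested (0% called) and 857 had an unadjusted p under 0.05. DESeq2 called 7 genes there, none of them a member. 

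In astrocyte-like nuclei 0 members passed, against 0.12% of all genes: Ntrk3 had 97.2 and 94.3 CPM in the Control libraries against 149 and 112 CPM in Kat6a-cKO (0.46 ± 0.16, adjusted p 0.356), and Sorcs1 37.5 and 39.7 CPM against 29.6 and 23.5 CPM (−0.51 ± 0.23, adjusted p 0.623). The neuronal gene Neurod6, which astrocytes do not express, was also lower in astrocyte-like nuclei of Kat6a-cKO, with 34.6, 50.1, 17.9 and 17.7 CPM (−1.21, adjusted p 0.0340), and NEX-cre sits at that locus. In astrocyte-like nuclei the 8 CA1 markers summed to 131, 125, 122 and 110 CPM, slightly lower in Kat6a-cKO. The 9 CA3 markers, some of which astrocytes also express, summed to 2385, 2105, 2320 and 2083 CPM and the 8 dentate granule markers to 333, 366, 375 and 325 CPM, and both sums overlapped between the groups. None of these markers was at 0 in all 4 libraries, and 0 passed the test. The part of free neuronal RNA in the Sorcs1 and Ntrk3 values was not tested. In oligodendrocyte-like nuclei 0 members passed, against 0.00856% of all genes: Bdnf had 17.8 and 19.9 CPM against 12.7 and 12.6 CPM (−0.57 ± 0.24, adjusted p 0.555), and Sort1 177 and 167 CPM against 135 and 146 CPM (−0.30 ± 0.12, adjusted p 0.520). In each of the 4 libraries the Bdnf level was below that of the library's near-empty droplets, and the Sort1 level was above it in both Control libraries and below it in both Kat6a-cKO libraries. Neurod6 was lower in the same nuclei, with 41.6, 52.2, 20.7 and 25.9 CPM (−1.02, adjusted p 0.0883). Without overlap between the groups, 5 of the 8 dentate granule markers were lower in Kat6a-cKO and 0 higher, 2 of the 8 CA1 markers lower and 0 higher, and 2 of the 9 CA3 markers lower and 3 higher, where 37.7% of all pairs of a gene and a class did not overlap in either direction. Their summed levels were 851, 716, 756 and 692 CPM, 693, 738, 879 and 644 CPM, and 603, 553, 563 and 501 CPM, and 0 markers passed the test. The part of free neuronal RNA in the Bdnf value was not tested. With the left-out glial clusters of high UMI count kept, Ntrk3 passed edgeR's test in oligodendrocyte-like nuclei (−1.43, adjusted p 1.79e-05). In that alternative 15 of 11920 genes were called higher and 361 lower, against 0 and 1 of 11686 in the reported test. The oligodendrocyte-like cluster kept there held 23 and 32 nuclei in the Control libraries and 4 and 1 in Kat6a-cKO. It raised 4 of 8 dentate granule markers, and its part in the Ntrk3 value was not tested. In OPC-like nuclei edgeR called 0 of 10020 genes (0% called) and 662 had an unadjusted p under 0.05. DESeq2 called 0 there. There Sorcs3 had 829 and 727 CPM against 943 and 881 CPM (0.23 ± 0.10, adjusted p 0.726).

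**Figure D4:**
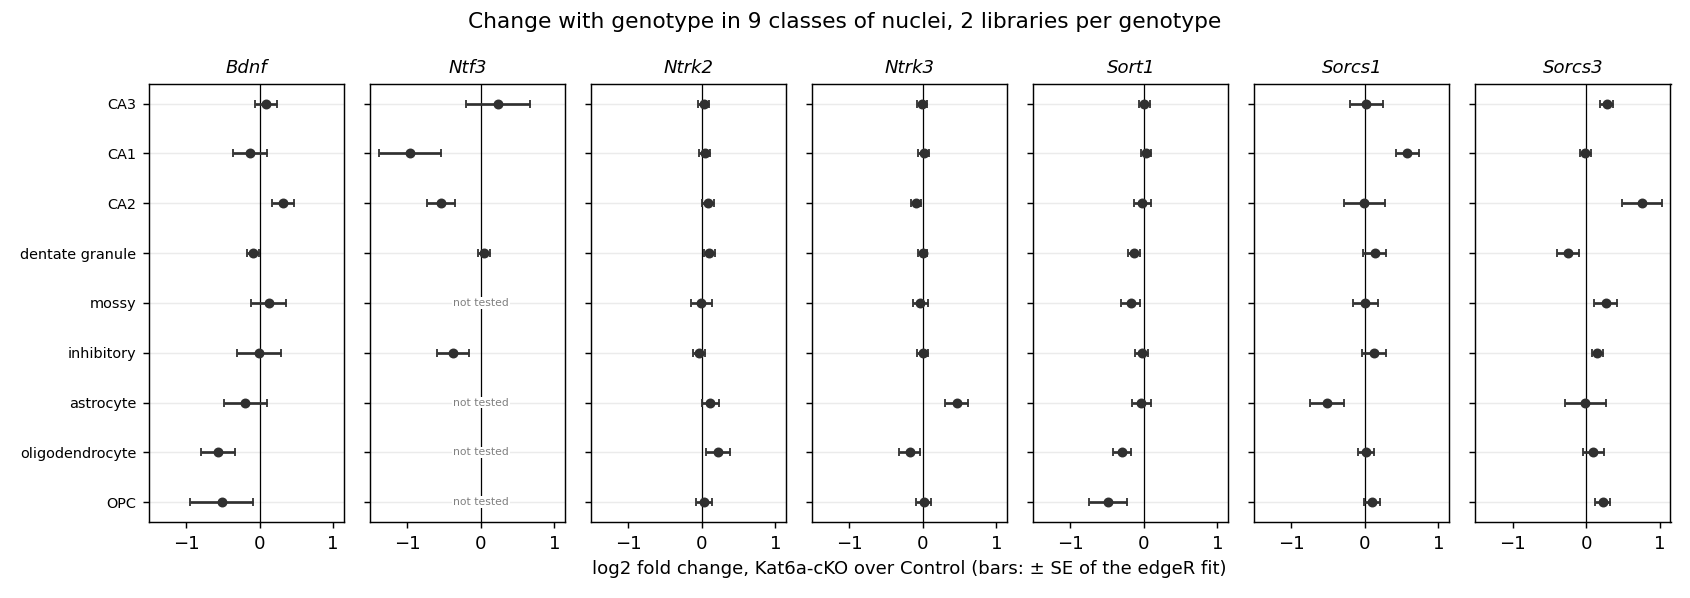
Log2 fold change of Kat6a-cKO over Control for the tested members in 9 classes, with the standard error from edgeR; points right of 0 are higher in Kat6a-cKO. None of the 59 values passes an adjusted p of 0.05, and 48 of them are smaller than 0.3 in size.

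Whether the change with genotype differed between classes was tested as an interaction of class and genotype. Sorcs3 differed between CA3-like and dentate granule-like nuclei, by 0.50 ± 0.08 on the log2 scale (adjusted p 0.00400), higher in Kat6a-cKO in the one (0.28) and lower in the other (−0.25), neither of which passed on its own. Of the 7 tested members 1 passed, against 0.283% of all genes. Without each library in turn the difference ran from 0.37 to 0.69, and with 10% of each sum taken off as free RNA it was 0.63 and no longer passed (adjusted p 0.679). In that alternative 0 of all 15623 genes tested passed this interaction, against 49 in the reported test. Between CA3-like and CA1-like nuclei 0 of 7 passed (0.754% of all genes), with Sorcs3 nearest at 0.28 ± 0.07 (adjusted p 0.0719). Between CA1-like and dentate granule-like nuclei 0 of 7 passed (0.388% of all genes), with Ntf3 nearest at −1.06 (adjusted p 0.362), a gene at a very low level in CA1-like nuclei, and Sorcs1 at 0.44 (adjusted p 0.594).

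The other genes of the pathway comprised 93 genes for the remaining ligands and receptors, the processing and secretion of proneurotrophins, the Trk adaptors and cascade, the partners of p75 and factors known to act on Bdnf transcription. Between 73 and 87 of them were tested per class, and 0 passed in 8 of the 9 classes, with 4 to 12 at an unadjusted p under 0.05 in each of those. Over the 9 classes 65 of 732 pairs of a pathway gene and a class (8.88%) had an unadjusted p under 0.05, close to the 8.03% of all pairs. In mossy-like nuclei, 33 to 58 per library, 2 of 73 rose and 0 fell, against 0.623% of all genes called in that class. Cadps2, which encodes a protein of dense-core vesicle release that promotes BDNF secretion, had 51.1 and 32.2 CPM in the Control libraries against 116 and 82.7 CPM in Kat6a-cKO, a log2 fold change of 1.30 ± 0.23 (adjusted p 0.0162). Pcsk5, a proprotein convertase gene, had 32.5 and 18.9 CPM against 84.8 and 46.9 CPM, a log2 fold change of 1.42 ± 0.30 (adjusted p 0.0499). For both the groups did not overlap and Kat6a-cKO replicate 1 was the highest library; without it the values were 1.02 (adjusted p 0.111) and 0.91 (adjusted p 0.422). With free RNA taken off they were 1.95 (adjusted p 0.0506) and 1.74 (adjusted p 0.102), DESeq2 gave 1.38 for Pcsk5 (adjusted p 0.0969), and the minimum of 8000 UMIs for neurons gave 1.41 (adjusted p 0.0676). Npas4, the gene of an activity-regulated factor that acts on Bdnf promoters, had 3.05, 4.99, 9.44 and 8.36 CPM in CA1-like nuclei, a log2 fold change of 1.13 ± 0.22 that did not pass (adjusted p 0.0788), while Bdnf in the same nuclei overlapped between the groups. In dentate granule-like nuclei, the p75 partner genes Bex3 (−0.43, adjusted p 0.152) and Maged1 (−0.37, adjusted p 0.131) and the Ras gene Hras (−0.50, adjusted p 0.149) came nearest without passing.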

How the data were processed

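Nuclear RNA of 4 libraries, 2 per genotype, was analysed from the UMI count matrices deposited by the authors. Per the submitters' processing notes, the build was mm10 and Seurat 4.0.1 was used, with no role given. The aligner and the strand setting are not given in the sources used here, so reads of antisense genes overlapping Bdnf, Ntrk2, Ntrk3, Sort1, Sorcs1 and Sorcs3 cannot be told apart. Gene symbols came from GENCODE M21 (54587 of 55422 identifiers matched with their version and 567 without it).

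Barcodes with at least 5000 UMIs (neurons) or 1000 UMIs (glia) were kept. Doublets called by Scrublet at an expected rate of 0.06 (3.05 to 3.77% of the barcodes from 5000 UMIs) were left out. Nuclei were clustered with scanpy 1.11.5 and leidenalg 0.10.2 (2000 variable genes without the members and pathway lists, 30 components, 15 neighbours, resolution 1). A cluster took a class where at least 50% and at least 3 of its markers were raised 2-fold. Of the glial clusters 3 with a median above 10000 UMIs, a limit set after seeing the data, were left out (0.379, 0.457, 0.164 and 0.0619% of nuclei). Clusters rich in Dcn, a cluster with 3 of 9 CA3 markers and one led by Sst stayed unnamed.

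Counts were summed per library and class and tested with edgeR 4.0.16 (TMM, filterByExpr, quasi-likelihood test, two-sided, Benjamini-Hochberg over all genes, threshold 0.05), checked on simulated data. SE is the log2 fold change over the root of F. The class comparisons used the library as a block. The 8 members were named in every class, with the other ligands and receptors, pathway genes past the threshold (at most 4 per direction and class) and the 3 genes with the most similar profile; some of these genes are not reported here. Npas4, Bex3, Maged1, Hras, Pcsk2, and the clusters described, were chosen after their values were seen. Members and lists were chosen with earlier results of these data known. Promoter windows came from RefSeq GRCm38.p6, and those of Ntrk3 and Sort1 were not analysed here. Alternatives were DESeq2 1.42.0, other size factors, no filter, the replicate number as a block, each library left out, other UMI minimums, doublets kept, free RNA taken off, finer clustering and 3 added after seeing the data.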

Additional observations from a re-analysis of the deposited data

Results flagged for a closer look

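The change of Sorcs3 with genotype differed between CA3-like and dentate granule-like nuclei by 0.503 on the log2 scale in edgeR's test of the difference itself (adjusted p 0.00400), with Control at 164 and 202 CPM and Kat6a-cKO at 225 and 220 CPM in the first class, and Control at 86.3 and 128 CPM and Kat6a-cKO at 96.2 and 83.9 CPM in the second. The direction was the same without each library in turn, and the dentate value rests on Control replicate 2, without which Sorcs3 in that class was 0.06. With free RNA taken off the difference was 0.63 and did not pass (adjusted p 0.679), as for all 15623 genes tested in that alternative.

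The pathway genes Pcsk2 and Sorcs2 were picked out by the same test between CA3-like and CA1-like nuclei. Pcsk2, a proprotein convertase gene of neurons, differed by −0.263 (adjusted p 0.0100), and Sorcs2, a sortilin family gene, by −0.399 (adjusted p 0.0207). With the 2 Control libraries first and the 2 Kat6a-cKO libraries after them, Pcsk2 stood at 978, 972, 922 and 900.1 CPM in CA3-like nuclei, where both Kat6a-cKO libraries were lower, and at 482, 494, 534 and 551 CPM in CA1-like nuclei, where both were higher. In the same order Sorcs2 stood at 55.5, 83.5, 75.3 and 61.7 CPM in CA3-like nuclei and at 27.9, 38.1, 47.5 and 37.8 CPM in CA1-like nuclei, so the genotypes overlapped in both classes. Without each library in turn Pcsk2 ran from −0.29 to −0.20 and Sorcs2 from −0.47 to −0.31. Pcsk2 lost the threshold without Control replicate 1 (adjusted p 0.150), Kat6a-cKO replicate 1 (0.130) and Kat6a-cKO replicate 2 (0.475), and Sorcs2 without any 1 library (adjusted p 0.0586 to 0.380). With free RNA taken off neither passed (adjusted p 0.232 and 0.288).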

How the results depend on the processing

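Of 736 values of the members under the alternatives, 80 had the opposite sign to the reported one, with reported sizes of at most 0.27, and 11 passed the threshold, in 6 pairs of a gene and a class. With no filter on low counts 1 member in place of 0 passed in CA3-like (Sorcs3), CA1-like (Sorcs1) and CA2-like nuclei (Sorcs3). That setting also raised the calls among all genes. In CA3-like nuclei 124 were called higher and 185 lower, against 3 and 1 in the reported test. In CA1-like nuclei the calls were 201 and 315 against 29 and 33, and in CA2-like nuclei 44 and 47 against 3 and 0. Values without single libraries are given with the classes above. With glial clusters of high UMI count kept, an alternative chosen after seeing the data, 1 member passed in oligodendrocyte-like nuclei (Ntrk3, −1.43, adjusted p 1.79e-05). There 15 of 11920 genes were called higher and 361 lower, against 0 and 1 of 11686 in the reported test. The library numbers are shared by the genotypes, but no label says that they pair the libraries. With the replicate number as a replicate block 1 member passed in CA1-like nuclei (Sorcs1, 0.60, adjusted p 0.00140) and 0 in the other classes tested between genotypes. The block called 228 of 15975 genes higher and 314 lower in CA1-like nuclei, against 29 and 33 in the reported test. The deviations of same-numbered libraries correlated across genes with r from 0.00429 (OPC-like) to 0.373 (CA1-like). The tests between classes have the library as a block already.

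Members whose change with genotype differed between CA3-like and CA1-like nuclei numbered 1 with no filter and 0 to 1 without single libraries; between CA3-like and dentate granule-like nuclei 0 with free RNA taken off (Sorcs3 0.63, adjusted p 0.679; 0 of 15623 genes passed) and 1 to 2 without single libraries; and between CA1-like and dentate granule-like nuclei 2 with no filter and 0 to 2 without single libraries. Reversals were all of values not past the threshold. With single libraries left out, the range was −0.15 to 0.39 for Bdnf in CA3-like nuclei, −0.49 to 0.26 in CA1-like nuclei and −0.21 to 0.010 in dentate granule-like nuclei, −0.050 to 0.11 for Ntrk2 in CA3-like nuclei and −0.015 to 0.092 in CA1-like nuclei, and for Sorcs3 −0.51 to 0.061 in dentate granule-like and −0.029 to 0.61 in mossy-like nuclei. Within these ranges Bdnf was 0.14 in CA1-like nuclei and Ntrk2 −0.024 in CA3-like nuclei when the first Kat6a-cKO library was absent. Finer clustering gave −0.030 for Bdnf and −0.029 for Ntrk2 in CA3-like nuclei and −0.018 for Ntrk2 in CA1-like nuclei. Ntrk2 in CA3-like nuclei was −0.011 with free RNA taken off, and Ntf3 there −0.24 with unnamed clusters joined. The causes were not tested.

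The class with the highest Control mean was the same for 5 to 7 of 7 members. With finer clustering Bdnf was highest in a microglia-like class that had taken in a cluster with a median of 1122 UMIs and CA1 markers (69.8 CPM), and Sorcs3 in OPC-like nuclei. With minimums of 8000 and 2000 UMIs Bdnf and Ntf3 were highest in immature dentate-like nuclei (67.2 and 52.4 CPM), and with doublets kept Ntf3 in dentate granule-like nuclei. With 2 libraries per genotype, low counts limit Ngfr in every class and Ntf3 in CA1-like, CA3-like and mossy-like nuclei.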
